A study of Vitis vinifera with 36 samples.

Results

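Flavonoid 3'-hydroxylase (F3'H) and flavonoid 3',5'-hydroxylase (F3'5'H) transcripts were followed in ripening grape berries (Vitis vinifera). The 10 loci examined, of 28119 with reads in the data, comprised 2 F3'H loci and 8 F3'5'H loci. They were listed by identifier, with earlier results of these data known. The F3'H loci are VIT_217s0000g07200 and VIT_217s0000g07210. The F3'5'H loci lie in a tandem array and run from VIT_206s0009g02810 to VIT_206s0009g02970. By the chromosome number in the identifiers, the families sit on chromosomes 17 and 6. The files pair no identifier with a gene name, so the family names rest on the list of loci and were not checked against an annotation.

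Berries of 2 cultivars, Victoria and Muscat Superior, were sampled in a summer and a winter crop at 3 ripening stages that carry Eichhorn-Lorenz (E-L) numbers. Berries begin to colour and soften at E-L 35, hold intermediate sugar at E-L 36 and are ripe for harvest at E-L 38. That gave 12 groups of 3 biological replicates and 36 libraries. All vines were 7 years old in 2014, stood on an unknown rootstock under a rain shelter in southern China, and had been pruned and treated with hydrogen cyanamide to force each crop. The winter crop came from a repeat pruning of vines that had already carried the summer crop, with leaves removed by hand. RNA came from 50 deseeded berries per replicate, so each library mixes skin and flesh. Crop, season and sampling date go together and cannot be told apart.

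Both enzymes are membrane-bound cytochromes P450 that add hydroxyl groups to the B ring of flavonoids. F3'H adds a single group and leads to cyanidin-type anthocyanins and quercetin-type flavonols. F3'5'H adds a pair and leads to delphinidin-type anthocyanins and myricetin-type flavonols, so the balance of the 2 activities is known to bear on berry colour. In grape, F3'5'H is encoded by a multi-copy tandem array whose coding sequences are alike.

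Library totals ran from 5624449 to 18606068 estimated reads. Replicates were unusually alike in winter: the counts of 8 of 18 pairs there had a chi-square of 1.45 to 1.89 per degree of freedom, near pure sampling error, against 0 of 18 summer pairs. The alike pairs included every pair in Victoria at E-L 36 and in Muscat Superior at E-L 35, so the spread of those groups may be technical, and calls of members that were lost with such libraries summed are named beside their values. The 4 loci listed as ripening-related had reads in all 36 libraries. One of them, VIT_219s0027g00230, was lower at E-L 38 than at E-L 35 in each cultivar and crop, by log2 changes of -0.90 to -1.83. The others differed between crops or cultivars. VIT_208s0007g07670 rose in the summer crop, by 0.92 in Victoria and 1.15 in Muscat Superior, and fell in winter, with -1.94 and -0.95. VIT_218s0122g00850 had 0.35 in summer Victoria, not called, and fell in winter Victoria (-2.26) and in both crops of Muscat Superior (-1.09 and -2.29). VIT_217s0000g00830 was called lower in winter Muscat Superior (adjusted p = 0.00703) and had -0.08 to -0.67 in the other 3 combinations, not called. Defining markers of skin, flesh and seed were not analysed here. In whole berries, fewer cells of a type and less RNA per cell cannot be told apart.

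Levels are given as RPKM (reads per kilobase of transcript, scaled to library size with TMM factors), which allows loci of different length to be compared. VIT_217s0000g07200 (2281 bases) had reads in all 36 libraries and averaged 52.2 RPKM. VIT_217s0000g07210 (1409 bases) averaged 3.69 RPKM. The former supplied 81.5% to 97.1% of the F3'H level in a library. Estimated counts of each F3'H locus were whole numbers (within 0.05 of a read) in 6 of 36 libraries, whereas their sum was whole in 36 of 36. Reads were thus shared between these neighbours, and how they were divided is uncertain.

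In summer Victoria, VIT_217s0000g07200 stood at 22.0, 32.6 and 42.95 RPKM at E-L 35, at 30.6, 23.3 and 20.6 at E-L 36, and at 21.8, 23.8 and 27.3 at E-L 38. In winter Victoria it stood at 34.6, 25.8 and 22.2 RPKM at E-L 35, at 11.6, 11.4 and 12.8 at E-L 36, and at 11.95, 7.48 and 8.45 at E-L 38. The crops overlapped at veraison onset, whereas every winter library lay below every summer library at the later stages. The log2 difference between winter and summer was -0.24 (SE 0.19, adjusted p = 0.33) at E-L 35, -1.06 (SE 0.20, adjusted p = 6.22e-05) at E-L 36 and -1.39 (SE 0.20, adjusted p = 1.51e-06) at E-L 38. VIT_217s0000g07210 was also lower at E-L 36, by a log2 change of -1.05 (SE 0.38, adjusted p = 0.0222), a call that was lost without summer replicate 3 (adjusted p = 0.0694), winter replicate 1 (0.092) or winter replicate 2 (0.0756), and with near-identical libraries summed (0.105).

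Muscat Superior went the other way. In summer, VIT_217s0000g07200 stood at 47.1, 48.8 and 46.6 RPKM at E-L 35, at 46.8, 57.4 and 63.2 at E-L 36, and at 61.0, 70.9 and 66.0 at E-L 38. In winter it stood at 98.3, 99.9 and 87.6 RPKM at E-L 35, at 65.6, 67.2 and 83.7 at E-L 36, and at 138.8, 153.5 and 184.9 at E-L 38. Winter libraries lay above summer libraries at each stage, with a narrow gap at E-L 36. The log2 difference was 1.00 (SE 0.19, adjusted p = 0.00044) at E-L 35, 0.37 (SE 0.19, adjusted p = 0.114) at E-L 36 and 1.27 (SE 0.19, adjusted p = 3.67e-06) at E-L 38. The difference of the crop effect between cultivars (Muscat Superior minus Victoria) was itself called for this locus at all 3 stages, at 1.24 (SE 0.27, adjusted p = 0.00192), 1.43 (SE 0.27, adjusted p = 0.00047) and 2.66 (SE 0.28, adjusted p = 2.29e-07) in log2.

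**Figure D1:**
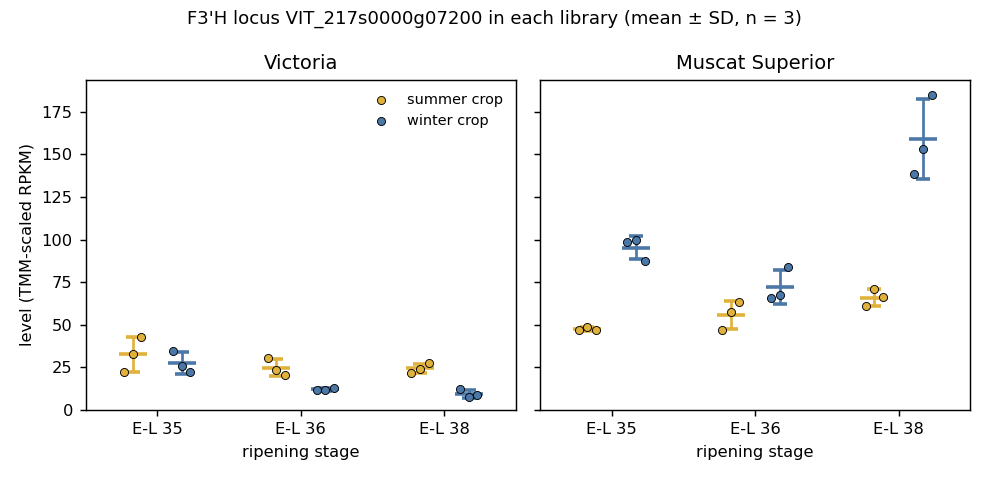
Level of the F3'H locus VIT_217s0000g07200 (TMM-scaled RPKM, linear axis) by ripening stage, with a panel for each cultivar. Points are libraries, bars are the mean and SD of 3 replicates; at E-L 38 winter libraries sit at 7.48 to 11.95 in Victoria and at 138.8 to 184.9 in Muscat Superior.

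The order of the 12 group means of VIT_217s0000g07200 followed cultivar first. Winter Muscat Superior at E-L 38 led with 159.1 ± 23.6 RPKM (SD, n = 3), followed by the same cultivar and crop at E-L 35 with 95.2 ± 6.70, and neither overlapped the group below it. From there down, winter E-L 36 (72.2), summer E-L 38 (65.9), summer E-L 36 (55.8) and summer E-L 35 (47.5) of Muscat Superior each overlapped the next. All 6 Muscat Superior groups stood above all 6 Victoria groups. The lowest were winter Victoria at E-L 36 (11.9 ± 0.769) and at E-L 38 (9.29 ± 2.35), which overlapped each other and no other group.

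The cultivars differed in VIT_217s0000g07200 in each crop and stage. In summer the log2 difference of Muscat Superior over Victoria was 0.55 (adjusted p = 0.0195) at E-L 35, 1.17 (adjusted p = 2.41e-05) at E-L 36 and 1.44 (adjusted p = 9.7e-07) at E-L 38. In winter it was 1.79 (adjusted p = 6.02e-08), 2.60 (adjusted p = 9.01e-11) and 4.10 (adjusted p = 4.37e-14). Expressed as F3'H sums, the fold between cultivars ran from 1.37 in summer at E-L 35 to 14.9 in winter at E-L 38. The call in summer at E-L 35 was lost without Victoria replicate 1 (log2 0.35, adjusted p = 0.138) and on the log2 FPKM scale (adjusted p = 0.191 and 0.202). VIT_217s0000g07210 was higher in Muscat Superior only among the winter comparisons at E-L 36 (log2 1.33, adjusted p = 0.00628) and E-L 38 (log2 2.06, SE 0.35, adjusted p = 5.46e-05). The former was lost without Muscat Superior winter replicate 2 (log2 0.95, adjusted p = 0.0778) and with near-identical libraries summed (adjusted p = 0.104). In the other 4 comparisons its log2 difference was between -0.52 and 0.84, and the last, in winter at E-L 35, was called without Victoria replicate 1 (1.20, adjusted p = 0.0311) or Muscat Superior replicate 1 (1.08, adjusted p = 0.0286).

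From veraison onset to harvest, the F3'H locus VIT_217s0000g07200 fell in winter Victoria, by 1.57 on the log2 scale (SE 0.20, adjusted p = 2.91e-07), and rose in winter Muscat Superior, by 0.74 (SE 0.19, adjusted p = 0.00186). In the summer crop the change was -0.42 (SE 0.19, adjusted p = 0.075) in Victoria and 0.47 (SE 0.19, adjusted p = 0.0516) in Muscat Superior. Without Victoria summer E-L 35 replicate 1, the former reached -0.63 (adjusted p = 0.00748), and it was also called on both log2 FPKM scales (0.00739 and 0.00883). The latter was called with DESeq2 (0.46, adjusted p = 0.0455) and with the compared groups alone (0.00037). The winter rise in Muscat Superior was not called with near-identical libraries summed (0.73, adjusted p = 0.0764), which leaves 1 sample at E-L 35. The change over ripening differed between crops in Victoria, by -1.15 (SE 0.28, adjusted p = 0.00139), whereas in Muscat Superior the difference was 0.27 (SE 0.26, adjusted p = 0.499).

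F3'5'H transcripts were scarce in Victoria and more abundant in Muscat Superior. The 8 loci together held 0 to 38.2 estimated reads in a Victoria library and 53.7 to 991.8 in a Muscat Superior library. Reads fell on VIT_206s0009g02830 in 31 libraries, on VIT_206s0009g02810 in 21, on VIT_206s0009g02840 and VIT_206s0009g02920 in 19 each, and on VIT_206s0009g02970 in 16. VIT_206s0009g02880 had reads in 9 libraries, VIT_206s0009g02910 in 3 and VIT_206s0009g02860 in 1, with at most 55.3, 2.2 and 2.5 reads in any library. Those 3 did not pass the filter on low counts, so 7 of the 10 loci were tested. The F3'5'H loci passed it through the Muscat Superior libraries, so counts of called loci between cultivars are description only. VIT_206s0009g02840 passed it through winter libraries, so its calls between crops are description only as well, in both cultivars.

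VIT_206s0009g02830 (936 bases) was the leading F3'5'H locus, with a mean of 5.08 RPKM over the libraries. In Victoria it ranged from 0 to 0.853 RPKM over 18 libraries. In summer Muscat Superior it stood at 2.69, 5.09 and 3.59 RPKM at E-L 35, at 4.11, 3.19 and 3.90 at E-L 36, and at 12.1, 10.1 and 9.20 at E-L 38. In winter it stood at 7.34, 10.9 and 9.82 RPKM at E-L 35, at 9.67, 8.05 and 6.47 at E-L 36, and at 19.0, 23.8 and 29.2 at E-L 38. Every winter library of Muscat Superior exceeded every summer library of its stage, and all 18 Muscat Superior libraries exceeded all Victoria libraries. Estimated counts of this locus were whole in 7 of the 31 libraries with reads, so how shared reads were divided is uncertain here too.

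Tested against summer, VIT_206s0009g02830 was higher in winter Muscat Superior by a log2 change of 1.31 (SE 0.36, adjusted p = 0.0117) at E-L 35, 1.11 (SE 0.38, adjusted p = 0.0181) at E-L 36 and 1.20 (SE 0.34, adjusted p = 0.00463) at E-L 38. The call at E-L 35 was lost without summer replicate 1 (adjusted p = 0.0796), without winter replicate 2 (0.0607) and with near-identical libraries summed (0.151). At E-L 36 it was lost without summer replicate 2 (0.0647), without winter replicate 1 (0.0746) and with such libraries summed (0.0569). At E-L 38 it held under each omission. On the log2(FPKM + 0.1) scale none of the 3 was called (adjusted p = 0.172, 0.168 and 0.177).

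**Figure D2:**
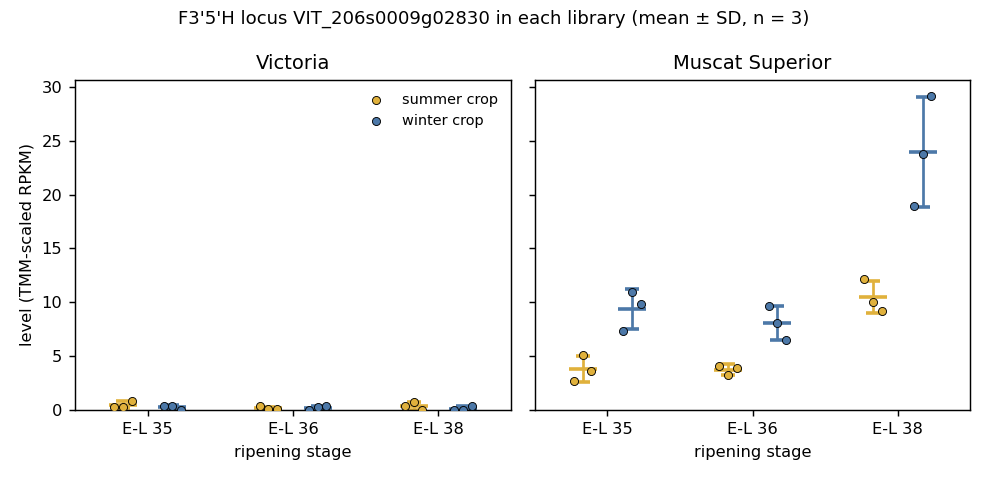
Level of the F3'5'H locus VIT_206s0009g02830 (TMM-scaled RPKM, linear axis) by ripening stage. Points are libraries, bars are the mean and SD of 3 replicates; Victoria stays at or below 0.853, and winter libraries of Muscat Superior lie above the summer libraries at each stage.

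Over ripening in Muscat Superior, VIT_206s0009g02830 rose from E-L 35 to E-L 38 by 1.47 in log2 in summer (SE 0.36, adjusted p = 0.00224) and by 1.36 in winter (SE 0.34, adjusted p = 0.00166). The 2 changes differed by -0.11 (SE 0.48, adjusted p = 0.898). The winter rise was not called with near-identical libraries summed (adjusted p = 0.0653), and neither rise was called on the log2(FPKM + 0.1) scale (adjusted p = 0.0877 and 0.13). Against Victoria, the log2 difference of Muscat Superior ran from 2.99 (SE 0.46) in summer at E-L 35 to 7.52 (SE 0.60) in winter at E-L 38. It is given as a description, since the locus passed the filter through Muscat Superior.

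The F3'5'H loci VIT_206s0009g02810 and VIT_206s0009g02840 had their highest group means in winter Muscat Superior at harvest. VIT_206s0009g02810 (1337 bases) stood there at 9.87, 4.53 and 25.9 RPKM against 3.03, 0.813 and 0.144 in summer, with no overlap. The log2 change was 3.39 (SE 0.98, adjusted p = 0.00743), and it was lost without winter replicate 3 (2.48, adjusted p = 0.0739) and with DESeq2 (adjusted p = 0.0932). VIT_206s0009g02840 (1826 bases) stood at 8.37, 6.54 and 10.1 RPKM against 0.887, 1.20 and 0, again with no overlap, and its log2 change was 3.60 (SE 0.76, adjusted p = 0.000664). The locus passed the filter through winter libraries, so this is given as a description. At E-L 36 this locus was at 2.22, 2.00 and 1.15 RPKM in winter and had no reads assigned in summer (adjusted p = 0.000802). It was 10.1-fold higher with 3 reads given to each summer library. That fold is no lower bound, since reads were shared along the array and how they were divided is uncertain.

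VIT_206s0009g02920 (1649 bases) and VIT_206s0009g02970 (1780 bases) were not called between the crops of Muscat Superior at harvest. The former stood at 0.959, 2.24 and 2.62 RPKM in winter and 0.732, 0.682 and 1.27 in summer (log2 1.11, SE 0.77, adjusted p = 0.256, and 0.0381 with the compared groups alone). The latter stood at 0, 7.75 and 1.49 in winter and 0.655, 3.50 and 2.03 in summer (log2 0.61, SE 1.05, adjusted p = 0.674). The replicates of VIT_206s0009g02970 scattered from 0 to 7.75 within the winter group. Its estimated counts were whole in 1 of the 16 libraries with reads, so how shared reads were divided is uncertain.

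In Victoria, a single F3'5'H locus was called between crops. VIT_206s0009g02840 stood at 0.83, 0.499 and 0.37 RPKM in winter at E-L 35 and at 0, 0 and 0.166 in summer (log2 3.25, SE 1.17, adjusted p = 0.0308). The call was lost without summer replicate 1 (adjusted p = 0.0886), summer replicate 2 (0.1), winter replicate 1 (0.134) or winter replicate 2 (0.0515), and with DESeq2 (0.058) or near-identical libraries summed (0.0581). From E-L 35 to E-L 38 the same locus went from those winter values to no reads (adjusted p = 0.0162, and 0.056 without winter E-L 35 replicate 1). With 3 reads per library it was 3.09-fold lower, which is no lower bound where reads are shared. In winter Victoria at E-L 38 the 8 loci held 3 reads in 1 library and none in the other two.

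**Figure D3:**
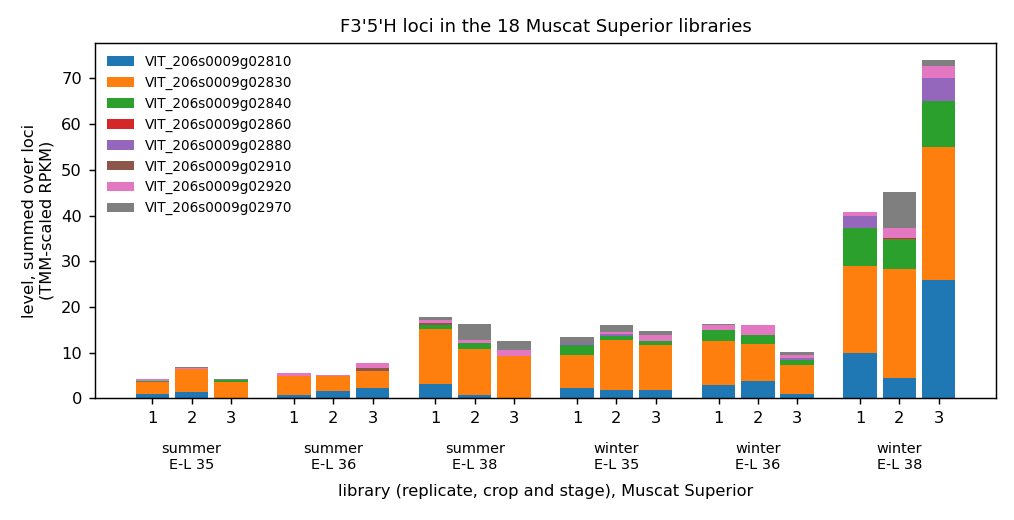
Levels of the 8 F3'5'H loci (TMM-scaled RPKM), stacked for each of the 18 Muscat Superior libraries, with replicate numbers on the axis. The stack is tallest in winter at E-L 38, between 40.9 and 74.1, and VIT_206s0009g02830 takes the largest mean share in each group.

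Summed over the 8 loci, the F3'5'H level in Muscat Superior was 5.16 ± 1.49 RPKM at E-L 35, 6.19 ± 1.39 at E-L 36 and 15.6 ± 2.63 at E-L 38 in summer (SD, n = 3). In winter it was 14.8 ± 1.24, 14.1 ± 3.43 and 53.4 ± 18.1. The winter mean was 2.86, 2.28 and 3.43 times the summer mean, with no overlap of libraries at any stage. In Victoria the group means of the sum lay between 0.115 and 1.65 RPKM, and single libraries between 0 and 2.89. VIT_206s0009g02830 supplied 73.3% of the sum in summer Muscat Superior at E-L 35 and 46.2% in winter at E-L 38, where VIT_206s0009g02810 supplied 23.1% and VIT_206s0009g02840 16.2%. Of the F3'5'H sums, 11 of 34 were whole numbers of reads, so these loci shared reads with each other and with loci outside the list.

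That sharing was traced, after the values had been seen, to a stretch of 21 listed loci from VIT_206s0009g02805 to VIT_206s0009g03050, over which estimated counts added up to whole reads in 35 of 36 libraries. The 13 further loci of the stretch are not annotated here and are given no family. The 8 F3'5'H loci held 48.3% of its reads over all libraries, and 32.1% to 57.4% in single Muscat Superior libraries. Locus VIT_206s0009g03010 alone held 39.1%, more than any of the 8 at harvest in winter, with 35.4 ± 4.87 RPKM (SD, n = 3) in Muscat Superior against 19.2 ± 3.55 in summer. The whole stretch stood at 127.6 ± 29.96 CPM (reads scaled to library size) in winter Muscat Superior at E-L 38 against 50.4 ± 9.26 in summer, a ratio of 2.53, after 3.01 at E-L 35 and 2.27 at E-L 36, with no overlap at any stage.

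Relative to F3'H, the F3'5'H sum was 10.2% ± 2.75 (SD, n = 3) at E-L 35, 10.5% ± 1.57 at E-L 36 and 22.1% ± 4.88 at E-L 38 in summer Muscat Superior. In winter it was 14.7% ± 1.27, 19.2% ± 6.46 and 31.4% ± 6.12. Winter libraries lay above summer libraries at E-L 36 and E-L 38, and at E-L 35 the lowest winter value (13.3%) fell just under the highest summer value (13.35%). In Victoria the group means ran from 0.615% to 5.11%. At E-L 38 in Victoria it was 1.14% in winter and 2.39% in summer, with overlap. Over the whole read-sharing stretch it was 11.0% in winter and 4.85% in summer, without overlap. In reads scaled to library size the stretch was lower in winter, at 0.817 CPM against 1.20, with at most 13 reads in a library. The ratio was taken on RPKM sums, which also weigh reads by locus length. The CPM values are therefore not its numerator. The F3'H sum in its denominator stood at 11.2 RPKM in winter and 27.5 in summer. In Muscat Superior the winter increase at harvest depended on the loci summed. With the whole stretch in place of the 8 loci, the ratio at E-L 38 was 73.3% ± 6.12 in winter and 74.2% ± 24.2 in summer. Summer replicate 1 stood at 102.0%. At E-L 35 and E-L 36 the winter ratio stayed above the summer one, 34.6% against 24.9% and 43.0% against 24.96%, with no overlap.

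**Figure D4:**
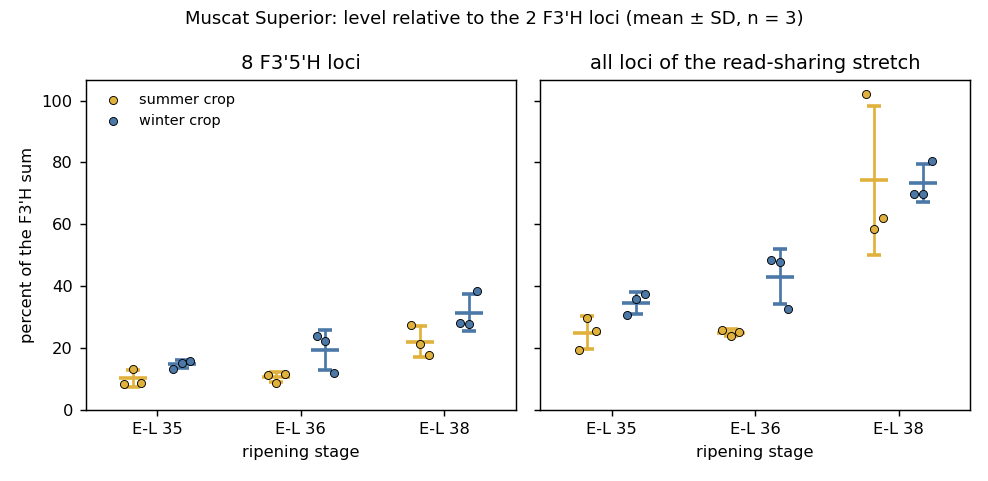
Level of the 8 F3'5'H loci (left) and of all 21 loci of the read-sharing stretch (right) as percent of the F3'H sum in Muscat Superior, by stage. Points are libraries, bars are the mean and SD of 3 replicates; at E-L 38 the crops are apart on the left (22.1% and 31.4%) and overlap on the right (74.2% and 73.3%).

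Counts of called loci have to be read against the share of all 19736 tested genes called in the same direction. In Victoria, winter against summer, 1 of the 7 tested loci was higher at E-L 35 (21.8% of all genes were), 2 were lower at E-L 36 (25.9%) and 1 was lower at E-L 38 (27.8%). Loci with no reads in both crops had no value and could not be called. These were VIT_206s0009g02810, VIT_206s0009g02920 and VIT_206s0009g02970 at E-L 36, and VIT_206s0009g02840 and VIT_206s0009g02920 at E-L 38. In Muscat Superior, 2 were higher at E-L 35 (9.33%), 2 at E-L 36 (21.0%) and 4 at E-L 38 (22.7%). The counts for Victoria at E-L 35 and for Muscat Superior at E-L 36 and E-L 38 include VIT_206s0009g02840, which passed the filter through winter libraries. The difference of the crop effect was called higher for 2 loci at E-L 35 (8.51%), 1 at E-L 36 (9.23%) and 2 at E-L 38 (8.17%). These were F3'H loci. No F3'5'H locus passed there, with 1, 0 and 1 at an unadjusted p under 0.05, while DESeq2 called 3, 1 and 3 of all members. At E-L 36 and E-L 38 only VIT_206s0009g02830 of the F3'5'H loci had a value. VIT_206s0009g02810, VIT_206s0009g02840, VIT_206s0009g02920 and VIT_206s0009g02970 had no reads in a group and could not be called. For VIT_206s0009g02830 the difference was 2.34 (SE 0.88, adjusted p = 0.063), 1.27 (SE 1.16, adjusted p = 0.488) and 2.72 (SE 1.10, adjusted p = 0.0903). DESeq2 called it at E-L 35 (adjusted p = 0.0209) and E-L 38 (0.0353), and so did edgeR without Victoria summer replicate 1 at E-L 35 (0.0451) and without Victoria summer replicate 3 (0.0254) or winter replicate 3 (0.0249) at E-L 38. On the log2(FPKM + 1) scale limma called it at all 3 stages (0.00147, 0.0345 and 0.0042).

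**Figure D5:**
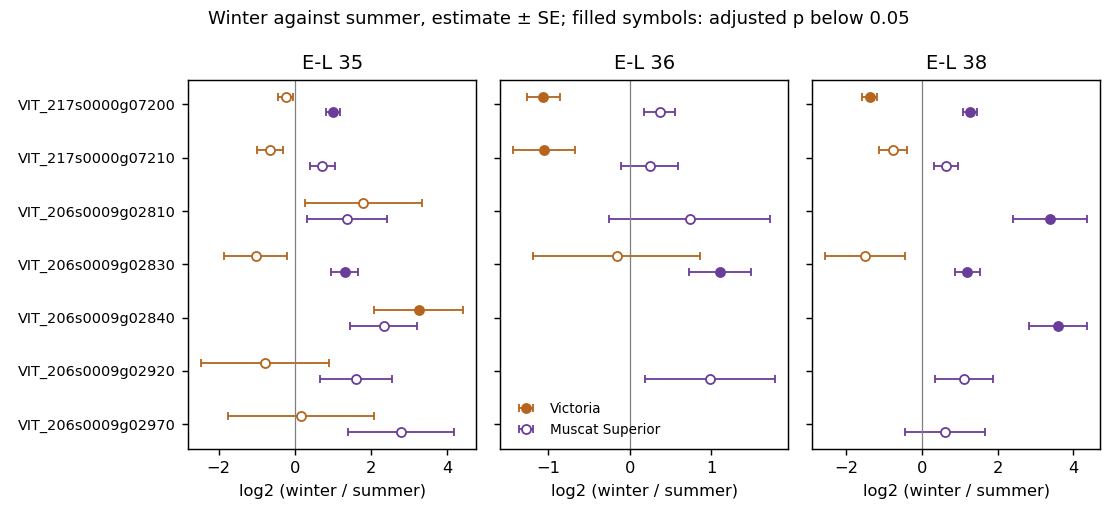
Log2 change of winter against summer (estimate and SE, edgeR) for the 7 tested loci at each stage, in Victoria and Muscat Superior, with colour for the cultivar, filled symbols for adjusted p below 0.05 and an x axis of its own scale in each panel. Loci with no reads in a group are left blank; VIT_217s0000g07200 lies left of 0 in Victoria and right of 0 in Muscat Superior at each stage.

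Over ripening, no member was called in summer Victoria with edgeR (1 at an unadjusted p under 0.05, 0 with DESeq2), where 42.9% of all genes were called in either direction. In winter Victoria 2 were lower (26.9%). In Muscat Superior 2 were higher in summer (16.4%) and 4 in winter (22.6%). The change over ripening differed between crops for 1 locus in Victoria, lower (22.9%), and for none in Muscat Superior with edgeR, where 0 passed an unadjusted p under 0.05 and DESeq2 called 0, against 27.1% of all genes. In Victoria VIT_206s0009g02830 was the only F3'5'H locus with a value for that change, since the other tested F3'5'H loci had no reads in a group. Among the winter Muscat Superior calls, VIT_206s0009g02810 rose by 2.78 in log2 (adjusted p = 0.0187, and 0.164 without winter E-L 38 replicate 3, 0.0512, 0.0613 and 0.063 without each E-L 35 replicate) and VIT_206s0009g02840 by 2.72 (adjusted p = 0.00377). DESeq2 called neither (0.177 and 0.0881). With near-identical libraries summed, 0 of the 4 winter calls were left, and these loci had adjusted p of 0.21 and 0.115. The summed libraries leave 1 sample at E-L 35. VIT_206s0009g02970 was called in summer (log2 3.58, adjusted p = 0.0471), and lost with near-identical libraries summed (0.0769), without any E-L 35 replicate (0.152, 0.0825, 0.102) or without E-L 38 replicate 2 (0.144) or 3 (0.0843).

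Between cultivars, Muscat Superior was higher for 2, 4 and 5 of the 7 loci in summer at E-L 35, E-L 36 and E-L 38, where 22.2%, 18.8% and 20.4% of all genes were higher. In winter 2, 6 and 7 were higher, against 14.8%, 17.6% and 13.9%. In winter at E-L 38, 3 counts per library stand for the reads missing in Victoria. The folds are no lower bounds, since these Victoria libraries held up to 8 reads over the read-sharing stretch, whose division is uncertain. Muscat Superior was 53.6-fold higher for VIT_206s0009g02810, 45.3-fold for VIT_206s0009g02840, 9.54-fold for VIT_206s0009g02920 and 16.4-fold for VIT_206s0009g02970. For the last, Muscat Superior replicate 1 had no reads either, so the groups overlapped, and without replicate 2 the adjusted p was 0.0651. In winter at E-L 36, VIT_206s0009g02810 and VIT_206s0009g02840 were not called with near-identical libraries summed (adjusted p = 0.104 and 0.092). In summer at E-L 36, VIT_206s0009g02810 was not called without any of the Victoria replicates (0.0633, 0.0533 and 0.055) or without Muscat Superior replicate 3 (0.056). In summer at E-L 38, VIT_206s0009g02970 was not called without any of the Victoria replicates (0.0694, 0.058 and 0.0874) or without Muscat Superior replicate 2 (0.0803).

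The rest of the flavonoid pathway was read from a list of 25 loci, of which 24 were in the files and 23 were tested. Their identifiers come from memory of the grape literature, without an annotation to check them, so roles are given by sub-list only. More of them were called higher than lower in winter at each stage in both cultivars. In Victoria 15 were higher and 1 lower at E-L 35 (21.8% and 20.3% of all genes), 12 and 4 at E-L 36 (24.9% and 25.9%), and 8 and 3 at E-L 38 (26.5% and 27.8%). In Muscat Superior 17, 14 and 15 were higher and 0, 2 and 0 lower, where 9.33%, 21.0% and 22.7% of all genes were higher and 8.25%, 21.6% and 22.4% lower. The median log2 change of the 23 in Victoria was 1.23, 0.52 and 0.35. For Muscat Superior it was 1.27, 1.46 and 0.99. These medians were the same with loci at 0 in a group placed at the bound of 3 reads per library. The median of all tested genes lay between -0.03 and 0.00.

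The early enzymes (chalcone synthase, chalcone isomerase and flavanone 3-hydroxylase) make the substrates of F3'H and F3'5'H. At E-L 36 all 6 tested were called higher in winter Muscat Superior (21.0% of all genes were), where neither F3'H locus was (log2 0.37 and 0.25). At E-L 38 all 6 were higher in winter Muscat Superior, where 22.7% of all genes were. The log2 changes were 1.65 for VIT_214s0068g00920, 1.59 for VIT_205s0136g00260, 1.52 for VIT_204s0023g03370, 1.47 for VIT_213s0067g03820, 1.33 for VIT_218s0001g14310 and 0.99 for VIT_213s0067g02870. In Victoria at E-L 38, where VIT_217s0000g07200 was lower by 1.39, 4 of the 6 were higher (26.5% of all genes) and none lower (27.8%). These were VIT_218s0001g14310 by 2.15, VIT_214s0068g00920 by 2.11, VIT_213s0067g03820 by 1.62 and VIT_205s0136g00260 by 1.52. The remaining pair, VIT_204s0023g03370 and VIT_213s0067g02870, each had a log2 change of 0.12 there.

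The 4 anthocyanin enzymes act after the hydroxylases and turn dihydroflavonols into coloured, glycosylated and methylated pigments. At E-L 38, 3 of them were higher in winter Muscat Superior, where 22.7% of all genes were: VIT_218s0001g12800 by 1.80, VIT_202s0025g04720 by 0.99 and VIT_201s0010g03510 by 0.99. VIT_216s0039g02230 had -0.17. In Victoria none was higher at that stage (26.5% of all genes were). VIT_201s0010g03510 was lower there (27.8% of all genes were), from at most 0.593 RPKM in summer to no reads. At E-L 35 and E-L 36, 2 and 2 were higher in winter Victoria (21.8% and 24.9% of all genes). In that cultivar 0 and 1 were lower (20.3% and 25.9%). In winter Muscat Superior 4 and 3 were higher at these stages (9.33% and 21.0%) and 0 and 0 lower (8.25% and 21.6%). Between cultivars, 3, 3 and 3 of the 4 were higher in Muscat Superior in summer (22.2%, 18.8% and 20.4% of all genes) and 3, 4 and 4 in winter (14.8%, 17.6% and 13.9%). VIT_216s0039g02230 stood at 20.7 to 71.5 RPKM in the Muscat Superior groups and at 6.64 to 9.40 in the Victoria groups.

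Of the 3 tannin enzymes, 1, 2 and 1 were lower in winter Victoria at E-L 35, E-L 36 and E-L 38 (20.3%, 25.9% and 27.8% of all genes). There 1, 0 and 0 were higher (21.8%, 24.9% and 26.5%). In winter Muscat Superior 2, 0 and 1 were higher (9.33%, 21.0% and 22.7% of all genes). VIT_217s0000g04150 was lower in winter Victoria at each stage, with -0.85, -1.05 and -1.14. VIT_200s0361g00040 was higher in winter at E-L 35 in both cultivars, by 1.88 in Muscat Superior and 1.75 in Victoria, and lower in Victoria at E-L 36, with -1.17. Both flavonol synthases, which use the hydroxylated dihydroflavonols too, were higher in winter at some stages: VIT_218s0001g03430 by 1.87 in Muscat Superior and 5.54 in Victoria at E-L 38, and VIT_218s0001g03470 by 3.53 in Victoria at E-L 36. In Muscat Superior at E-L 36 the latter went from no reads in summer to 2.48 RPKM in winter, a call. Of the 2 synthases, winter Victoria had 2, 2 and 1 higher over the 3 stages (21.8%, 24.9% and 26.5% of all genes). Winter Muscat Superior had 1 higher at each stage (9.33%, 21.0% and 22.7%). Neither was called lower in either cultivar. Among the 8 regulators tested, 4 were higher in winter Muscat Superior at E-L 38, where 22.7% of all genes were: VIT_202s0033g00450 by 1.38, VIT_207s0104g00090 by 0.96, VIT_208s0007g07230 by 0.87 and VIT_206s0004g00570 by 0.66. In winter Victoria 4, 4 and 3 regulators were higher at E-L 35, E-L 36 and E-L 38 (21.8%, 24.9% and 26.5% of all genes). There 0, 1 and 1 were lower (20.3%, 25.9% and 27.8%). In winter Muscat Superior at E-L 35 and E-L 36, 4 and 4 were higher (9.33% and 21.0%) and 0 and 2 lower (8.25% and 21.6%). VIT_202s0033g00390 rose by 2.48 in Muscat Superior and 3.00 in Victoria at E-L 36. VIT_207s0005g01210 fell there, with log2 changes of -2.02 and -1.03, and VIT_215s0046g00170 had -1.82 in Muscat Superior at E-L 36, a call, and 1.32 in Victoria at E-L 35, also a call.

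Patterns over the 12 group means (Pearson r of mean log2 CPM, a description over groups that share cultivar, crop and stage) linked members of both families. VIT_206s0009g02830 and VIT_217s0000g07200 correlated at 0.94. VIT_206s0009g02830 and the other F3'H locus, VIT_217s0000g07210, had 0.76. Across the tested F3'5'H loci, the r of VIT_217s0000g07200 ran from 0.75 (VIT_206s0009g02840) to 0.94. The tested genes most like VIT_206s0009g02830 were VIT_206s0009g03010 (0.983), which shares reads with the array, VIT_211s0118g00160 (0.982), VIT_218s0001g09400 (0.98), VIT_200s0269g00040 (0.975) and VIT_209s0002g07640 (0.975). Those most like VIT_217s0000g07200 were VIT_207s0151g00260 (0.953), VIT_218s0001g09400 (0.949), VIT_209s0018g01190 (0.948), VIT_212s0028g02660 (0.947) and VIT_211s0016g04330 (0.941). Of the pathway list, VIT_216s0039g02230 (0.97), VIT_201s0010g03510 (0.96) and the regulator VIT_202s0033g00410 (0.96) came closest to VIT_206s0009g02830. The last was near absent in Victoria, at 0 to 0.594 RPKM in 18 libraries, and stood at 13.1 to 83.5 RPKM in Muscat Superior.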

How the data were processed

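RNA-seq tables of 36 berry libraries were used, in 12 groups of 3. Per the file headers, the authors deposited for each gene expected counts (reads per gene, with fractions where reads were shared), an FPKM value scaled by the authors to transcript length and library size, and a transcript length in bases. Bowtie is named in the submitters' processing notes. Neither the genome build nor the annotation or counter is given in the sources used here. A gene with no line in a table was entered as 0. Estimated counts were rounded for testing, and 79.5% of listed values were whole within 0.05 of a read.

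Testing used edgeR 4.0.16 under R 4.3.3 (robust quasi-likelihood F test, TMM factors 0.851 to 1.202, filterByExpr, means model of 12 groups, 24 residual degrees of freedom). Calls had a Benjamini-Hochberg adjusted p below 0.05 over 19736 genes, and 21 comparisons were made. The SE is the log2 change divided by the square root of F. Levels are CPM per kilobase of the mean deposited length. Folds against a group with no reads use 3 reads per library, which cover counting error only and set no bound for loci that share reads. Family sums and ratios were not tested. Alternatives were DESeq2 1.42.0, limma 3.58.1 on log2(FPKM + 1) and log2(FPKM + 0.1), no filter, a replicate block, the compared groups alone, near-identical libraries summed, and each library left out. The procedure was also run on simulated counts, drawn with the same dispersion for all genes and without shared reads or near-identical libraries. That run does not bear on those limits. Replicate numbers did not pair libraries.

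Members and lists were chosen with earlier results of these data known. All 10 members are named. Pathway loci are named where called between crops in both cultivars (20 loci) or largest in a comparison. VIT_206s0009g03010 and the stretch around it were chosen after seeing the data. The 5 genes most like the leading locus of each family are named. The labels call the replicates biological without giving their source vines, so p-values measure the spread between these samples. Sequences are not used here, since 0 of 28119 identifiers matched the supplied gene table.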

Additional observations from a re-analysis of the deposited data

Results flagged for a closer look

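For 6 results the effect of one factor differed between groups by a test of the difference itself. The crop effect on VIT_217s0000g07200 differed between Muscat Superior and Victoria by 1.24 in log2 at E-L 35, 1.43 at E-L 36 and 2.66 at E-L 38, and these calls held under every alternative run. The other F3'H locus, VIT_217s0000g07210, differed likewise by 1.36 at E-L 35 (adjusted p = 0.0445) and 1.39 at E-L 38 (adjusted p = 0.0485), values at the edge of the threshold. At E-L 35 that call was lost without Victoria summer replicate 1 or 3, Victoria winter replicate 3, Muscat Superior summer replicate 2 or 3, or Muscat Superior winter replicate 2 or 3 (adjusted p from 0.0798 to 0.138), and at E-L 38 without any library of the 4 groups except Victoria winter replicate 1 (0.0529 to 0.108). With near-identical libraries summed neither was called (0.137 and 0.0969). The change of VIT_217s0000g07200 over ripening in Victoria differed between winter and summer by -1.15.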

How the results depend on the processing

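No result reversed its direction under an alternative where it was called. Members called moved as follows, in the order of stages E-L 35, 36 and 38 where several are given. With DESeq2, Victoria between crops at E-L 35 had 0 and winter Muscat Superior over ripening 2. With log2(FPKM + 1), Victoria between crops at E-L 35 had 2, the crop effect 3 at E-L 36 and 4 at E-L 38, summer Victoria over ripening 1, the ripening change in Muscat Superior 1 and the cultivars in summer at E-L 35 1. With log2(FPKM + 0.1), these were 2 for Victoria at E-L 35, 2 for the crop effect at E-L 36, 1 for summer Victoria over ripening and 1 for the cultivars in summer at E-L 35, with 1 for Muscat Superior between crops at E-L 36 and 5 for the cultivars in winter at E-L 35. Without the filter, the crop effect had 1 at E-L 35 and 1 at E-L 38, and summer Muscat Superior over ripening 1. With the compared groups alone, Victoria between crops had 0 at E-L 35 and 2 at E-L 38, Muscat Superior at E-L 35 5, the crop effect at E-L 35 1, ripening 1 in winter Victoria and 5 in summer Muscat Superior, and the cultivars in summer 1 at E-L 35 and 2 at E-L 36. With near-identical libraries summed, Victoria between crops had 0 at E-L 35 and 1 at E-L 36, Muscat Superior 1 at E-L 35 and 1 at E-L 36, the crop effect 1 at E-L 35 and 1 at E-L 38, ripening 1 in summer and 0 in winter Muscat Superior, and the cultivars in winter at E-L 36 3. Summing leaves fewer samples.

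All genes called with such libraries summed came to 6223 in Victoria at E-L 36, 525 in Muscat Superior at E-L 35, 934, 1001 and 2001 for the crop effect, 5326 over ripening in winter Muscat Superior, 2588 for the ripening change in Muscat Superior, and 2451 and 2787 between cultivars in winter at E-L 35 and E-L 36. With the compared groups alone they came to 7939 and 5533 in Muscat Superior at E-L 35 and E-L 36, 1982 for the crop effect at E-L 36 and 2578 between cultivars in summer at E-L 36. With each replicate left out, Muscat Superior at E-L 35 gave 2313 to 2378, against 3470.

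On the log2(FPKM + 1) scale the median of all genes moved to between -0.23 and 0.17, and on the log2(FPKM + 0.1) scale to between -0.32 and 0.21, so changes there are read against that shift. The percent of calls that were higher then went, on the respective scales, from 51.7 to 33.2 and 34.0 in Victoria at E-L 35, from 47.1 to 75.4 and 74.6 and from 49.4 to 64.3 and 65.0 for the crop effect at E-L 35 and E-L 36, from 48.5 to 22.7 and 23.5 over ripening in summer Victoria, from 46.5 to 61.8 and 60.1 and from 48.8 to 36.9 and 35.6 for the ripening change in Victoria and Muscat Superior, and from 49.8 to 22.4 and 23.3, 49.4 to 31.0 and 31.4, and 49.8 to 38.4 and 38.7 between cultivars in summer at E-L 35 and E-L 36 and in winter at E-L 38. With log2(FPKM + 0.1) alone it went from 53.1 to 63.5 in Muscat Superior at E-L 35 (66.7 with near-identical libraries summed) and from 48.9 to 38.1 over ripening in winter Muscat Superior.

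Replicate numbers did not pair libraries: deviations of same-numbered libraries correlated at -0.15 to 0.05. With the replicate block, the crop effect had 1 member at E-L 35 and 1 at E-L 38, in place of 2 and 2, and other counts of members and of all genes kept within 1.5 times.

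Leaving out 1 library, members called ranged from 0 to 1 in Victoria at E-L 35, 1 to 2 at E-L 36 and 1 to 2 at E-L 38; in Muscat Superior 1 to 2, 1 to 2 and 3 to 5; for the crop effect 1 to 2 at each stage; over ripening 0 to 1 and 1 to 3 in summer and winter Victoria and 1 to 2 and 3 to 5 in Muscat Superior; and between cultivars 1 to 3, 3 to 4 and 4 to 5 in summer and 2 to 4, 5 to 6 and 7 to 8 in winter. 

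The level of all 21 loci of the read-sharing stretch as percent of F3'H, chosen after seeing the data and set against the F3'5'H percent, was 6.39, 3.55 and 4.85 in summer Victoria, 7.98, 9.01 and 11.0 in winter Victoria, 24.9, 24.96 and 74.2 in summer and 34.6, 43.0 and 73.3 in winter Muscat Superior. Low counts limit the F3'5'H loci and the stretch in Victoria.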
